A study of Mus musculus with 8 samples.

Results

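The circadian clock genes were read from array measurements of total mammary cell suspensions of mice that had gone through an early pregnancy and of virgin mice. They comprise 10 genes, namely Arntl, Clock, Per1, Per2, Per3, Cry1, Cry2, Nr1d1, Nr1d2 and Dbp. A probe set was counted for a gene if that gene was the only symbol the array annotation gave for it. By this rule each of the 10 genes had 1 probe set, out of 34760 probe sets and 19935 gene symbols on the array.

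The mice were FVB/NHanHsd, an inbred strain, and the 8 arrays comprised 4 of parous and 4 of virgin mice. Parous mice were mated at 42 days of age, went through pregnancy and had 21 days of lactation. The labels then give 28 days of involution, the regression of the gland after weaning, whereas the methods give a longer period. Virgin controls were age-matched, and neither group carried a transgene or received an agent. Each array came from the 4th mammary glands of 5 mice pooled into 1 sample, so that differences between single mice are not visible. The work was done in 4 experiments that each used 5 mice of both groups, and no source used here ties the replicate numbers to these experiments. Grouping the mice was also the means by which the estrous cycle was controlled for. Lymph nodes, adipocytes and red blood cells were removed and fibroblasts were reduced by attachment, and the suspensions were not sorted. The time of day at which the glands were taken and the estrous stage of each pool are not given in the sources used here. A difference in collection time between pools can therefore not be told apart from a difference between groups for any gene below.

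The circadian clock is a feedback loop of transcription that runs in nearly every cell. The activators BMAL1, encoded by Arntl, and CLOCK bind E-box sequences as a pair and switch on the Per and Cry genes, whose proteins return to the nucleus and inhibit the pair. The same activators drive Nr1d1 and Nr1d2, which encode the receptors REV-ERB alpha and beta that repress Arntl, and Dbp, an output factor that acts through D-box sequences. In tissues with a running clock Arntl therefore peaks at about the opposite time of day to Dbp, Per and the REV-ERB genes. The mammary gland has such a clock.

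The sequence classes that these factors bind were sought in the 250 bases before the annotated starts of the genes (RefSeq, GRCm38.p6), because they are the elements through which the loop and its inputs act on these genes. Windows were given for 9 of the 10 genes, 13 in all, and Per2 was not among them. Searched on both strands were the E-box CACGTG of the activators, the D-box TTATGTAA of Dbp, the cyclic AMP response element TGACGTCA, through which Per genes can be induced, and the ROR element, the site of the REV-ERB receptors. The E-box and the cyclic AMP response element read the same on both strands, and none of these letter strings overlapped another in the windows shown. The E-box was in 2 of the 13 windows, against 6.02% of the 32851 windows of all genes, and the D-box was in 1, against 0.819%. The cyclic AMP response element was in 0 of the 13 (1.55% of all windows) and the ROR element in 0 (0.332%). Bases at and after the start were not searched, so a count of 0 does not speak about elements there. The windows with a match belong to Per1 (chr11:69098699-69098948, plus strand), Per3 (chr4:151044666-151044915, minus strand) and Cry1 (chr10:85185055-85185304, minus strand). They are shown 5′ to 3′ in the direction of the gene, with the matches in capitals.
Per1: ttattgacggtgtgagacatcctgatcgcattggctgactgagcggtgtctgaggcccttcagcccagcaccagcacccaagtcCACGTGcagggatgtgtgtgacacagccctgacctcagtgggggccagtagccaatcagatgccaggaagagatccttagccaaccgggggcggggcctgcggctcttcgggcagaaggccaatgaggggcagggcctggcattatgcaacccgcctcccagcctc
Per3: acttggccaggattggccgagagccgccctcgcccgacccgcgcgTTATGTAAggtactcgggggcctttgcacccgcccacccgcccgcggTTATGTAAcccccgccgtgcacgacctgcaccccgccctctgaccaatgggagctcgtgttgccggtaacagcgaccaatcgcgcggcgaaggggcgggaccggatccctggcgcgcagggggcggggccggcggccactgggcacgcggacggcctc
Cry1: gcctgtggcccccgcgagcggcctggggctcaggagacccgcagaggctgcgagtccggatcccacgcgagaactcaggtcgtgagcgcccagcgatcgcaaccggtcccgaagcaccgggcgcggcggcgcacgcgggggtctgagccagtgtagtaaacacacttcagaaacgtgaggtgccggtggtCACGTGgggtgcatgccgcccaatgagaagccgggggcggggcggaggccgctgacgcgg
The E-box of Per1 began 166 bases before the start and that of Cry1 60 bases before it. The D-boxes of Per3 began 205 and 158 bases before it. A match is a description of the letters and not evidence of binding, and the arrays measured no binding.

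None of the 10 clock genes passed the criteria of the comparison between parous and virgin mice, which asked for more than 1.5-fold on the linear scale, for an adjusted p below 0.05 and for a mean log2 value above 2. The share of all probe sets that passed was 0.397%. At an unadjusted limma p under 0.05, Per1 and Dbp were higher in parous mice and 0 of the 10 were lower, against 5.26% and 6.14% of all probe sets. No clock gene had parous arrays that were all above the virgin ones (3.54% of all probe sets) or all below them (4.06%). The log2 difference was above 0 for 7 of the 10 and below 0 for Arntl, Clock and Cry1. Its median over the 10 genes was 0.20, beside 0.0016 over all probe sets, of which 50.4% were above 0. In a cell suspension, fewer cells of a type and less RNA per cell cannot be told apart, which holds for every level below.

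Of the activators, Arntl (chr7:113178471-113314126) encodes BMAL1, the partner without which the loop does not run. Its log2 values were 8.14, 8.49, 7.75 and 7.93 on parous arrays 1 to 4 and 8.47, 8.79, 8.10 and 8.14 on virgin arrays 1 to 4. The groups overlapped, with virgin array 2 highest and parous array 3 lowest. In both groups the replicate numbers ran 2, 1, 4 and 3 from highest to lowest. Each parous array was below the virgin array of its number. The mean was lower in parous mice by a log2 difference of -0.30 (SE 0.20, 95% confidence interval -0.75 to 0.16, limma adjusted p = 0.64). The exact permutation test gave p = 0.314, where the smallest value that 4 arrays against 4 allow is 0.029. Neither test used the replicate numbers, which no source used here ties to experiments. With the number as a block the limma p was 0.0067 before and 0.24 after adjustment.

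Clock (chr5:76209868-76305603), the other activator, is known to cycle little at the RNA level in many tissues. On these arrays it varied least of the 10 genes. Its log2 values were 9.51, 9.72, 9.65 and 9.62 in parous mice and 9.53, 9.75, 9.67 and 9.77 in virgin mice. The values of both groups were interleaved, with a log2 difference of -0.06 (SE 0.083, limma adjusted p = 0.87). The SD of Clock over the 8 arrays was 0.096, at the 13.7th percentile of all probe sets, whereas that of Arntl was 0.34, at the 82.0th.

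**Figure D1:**
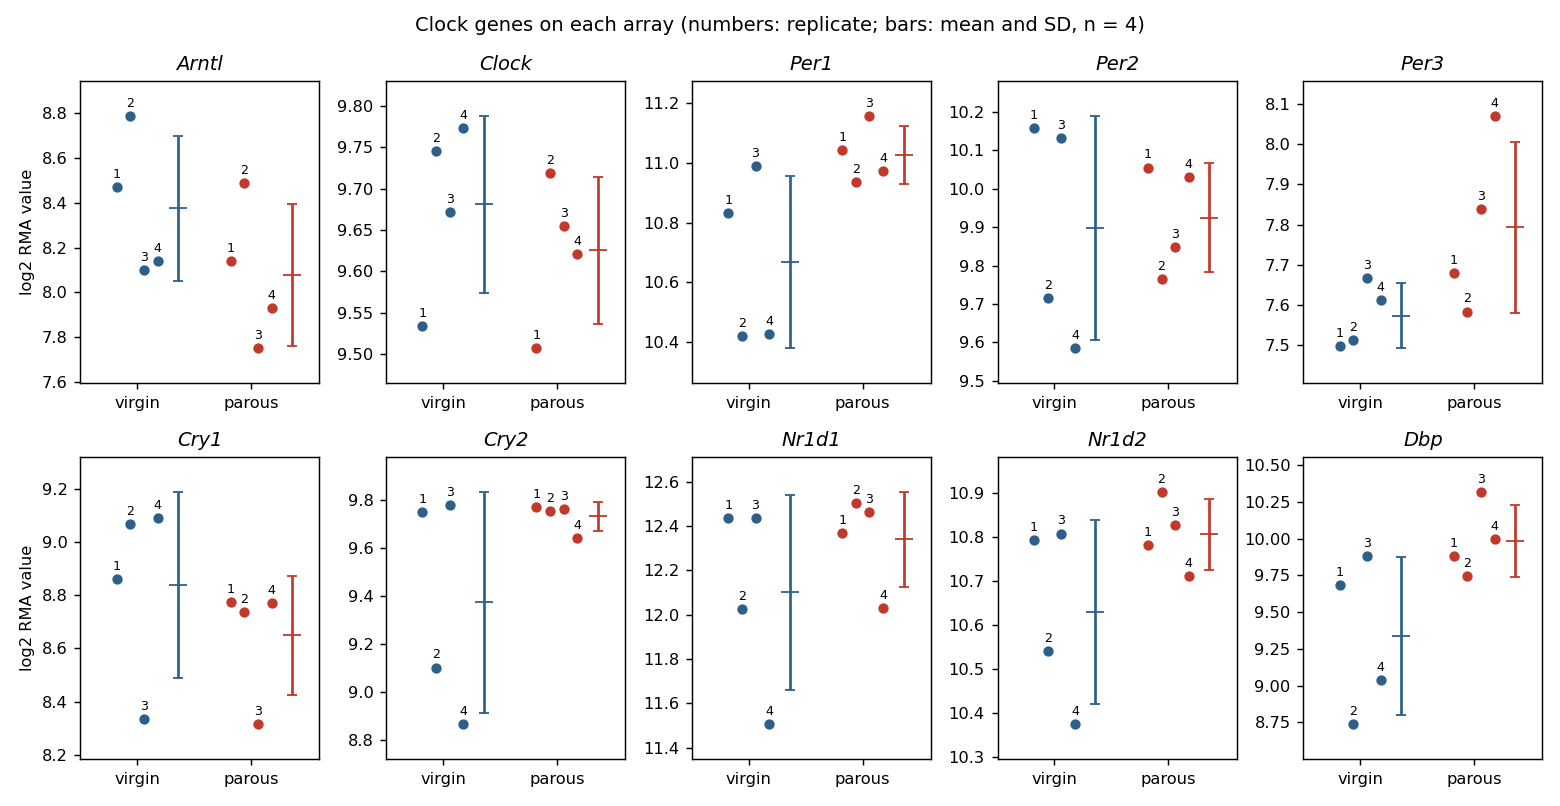
Log2 RMA values (vertical axes, a scale of its own for each gene) of the 10 clock genes on 4 virgin (blue) and 4 parous (red) arrays. Points are arrays with their replicate number, and bars are the mean and SD of 4 arrays. The groups overlapped for every gene, and virgin arrays 2 and 4 were the lowest for Per1, Per2, Cry2, Nr1d1, Nr1d2 and Dbp.

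The repressors comprise the Period genes, whose proteins carry the inhibitory complex, and the Cryptochrome genes, whose proteins block the activators directly. Per1 (chr11:69095108-69109965) is also an acutely inducible gene that responds to glucocorticoid and cyclic AMP. On the log2 scale it stood at 11.04, 10.93, 11.16 and 10.97 on the parous arrays and 10.83, 10.42, 10.99 and 10.43 on the virgin arrays. All parous arrays were above virgin arrays 1, 2 and 4, but virgin array 3 lay within the parous range. Parous and virgin means differed by 0.36 on the log2 scale (SE 0.14, 95% confidence interval 0.038 to 0.68), a 1.28-fold higher mean, with a limma p of 0.033 before and 0.38 after adjustment. The exact permutation test gave p = 0.0857.

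Per2 (chr1:91415977-91459351), the Period gene most tightly tied to the loop, did not separate the groups. The log2 values were 10.06, 9.76, 9.85 and 10.03 in parous mice and 10.16, 9.71, 10.13 and 9.58 in virgin mice. Both the highest and the lowest array were virgin. Their means differed by a log2 value of 0.03 (95% confidence interval -0.31 to 0.37, limma adjusted p = 0.97), and its sign turned when any 1 of parous array 1, parous array 4, virgin array 2 or virgin array 4 was left out.

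Per3 (chr4:150997018-151044707) is the Period gene that the loop can do without. The arrays gave log2 values of 7.68, 7.58, 7.84 and 8.07 in parous mice and 7.50, 7.51, 7.67 and 7.61 in virgin mice. Parous array 4 was highest, and parous array 2 lay within the virgin range. Parous mice were on average 0.22 higher on the log2 scale (SE 0.11, limma adjusted p = 0.52, exact permutation p = 0.114). Per3 was the only one of the 10 genes whose SD was larger among parous arrays (0.21) than among virgin arrays (0.080). For all probe sets the virgin SD was the larger in 57.9%.

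The 2 Cryptochrome genes lay on opposite sides of 0. Cry1 (chr10:85131700-85185054), whose protein is the stronger repressor of the pair, had log2 values of 8.77, 8.74, 8.32 and 8.77 in parous mice and 8.86, 9.07, 8.34 and 9.09 in virgin mice. Array 3 was the lowest of each group. Parous minus virgin was -0.19 on the log2 scale (SE 0.18, limma adjusted p = 0.77, exact permutation p = 0.4).

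Cry2 (chr2:92403646-92434085) had nearly equal values on 6 of the 8 arrays. The log2 values were 9.77, 9.75, 9.76 and 9.64 in parous mice and 9.75, 9.10, 9.78 and 8.87 in virgin mice. Virgin arrays 2 and 4 stood below all others, and virgin arrays 1 and 3 were within or above the parous range. The log2 difference was 0.36 (SE 0.20, 95% confidence interval -0.11 to 0.82, limma adjusted p = 0.57, exact permutation p = 0.314).

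Nr1d1 (chr11:98767932-98775377) and Nr1d2 (chr14:18204056-18239106) encode the heme-binding receptors that repress Arntl. Nr1d1 overlaps Thra, and the RNA was labelled as sense-strand cDNA. Whether an overlap affects the values was not tested for any clock gene. The log2 values of Nr1d1 were 12.37, 12.50, 12.46 and 12.03 in parous mice and 12.44, 12.03, 12.43 and 11.51 in virgin mice. Virgin array 4 was lowest, and parous array 4 was close to virgin array 2. Parous minus virgin was 0.24 on the log2 scale (SE 0.21, limma adjusted p = 0.74, exact permutation p = 0.371). Nr1d2 had log2 values of 10.78, 10.90, 10.83 and 10.71 in parous mice and 10.79, 10.54, 10.81 and 10.38 in virgin mice. It showed the same low virgin arrays 2 and 4, with a log2 difference of 0.18 (SE 0.11, limma adjusted p = 0.61, exact permutation p = 0.2).

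Dbp (chr7:45705100-45710203), a transcription factor of the PAR bZIP family and a direct E-box target, varied most of the 10 genes. Its log2 values were 9.88, 9.75, 10.32 and 9.995 in parous mice and 9.68, 8.74, 9.88 and 9.04 in virgin mice. Parous array 3 was highest, virgin arrays 2 and 4 were lowest, and virgin array 3 lay inside the parous range. The log2 difference was 0.65 (SE 0.25, 95% confidence interval 0.070 to 1.23), a 1.57-fold higher mean in parous mice. The limma p was 0.032 before and 0.38 after adjustment, and the exact permutation test gave p = 0.0571. The SD of Dbp over the 8 arrays, 0.52, was at the 93.8th percentile of all probe sets. Dbp overlaps Sphk2 in the annotation. Arntl, Clock, Per2, Per3 and Cry2 also overlap other annotated genes there, such as Uts2 for Per3, whereas Per1, Cry1 and Nr1d2 do not.

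Across the pools, virgin arrays 2 and 4 were the 2 lowest of the 8 for Per1, Per2, Cry2, Nr1d1, Nr1d2 and Dbp, 6 of the 10 genes, and the 2 highest for Clock and Cry1. Over all probe sets these arrays were the 2 lowest in 9.55% and the 2 highest in 14%. They were singled out by these same values. Leaving them out must therefore lower the difference of the 6 genes and raise that of Clock and Cry1. It also leaves 2 virgin arrays, so the values below are a description and not a test. Without both arrays the log2 difference was 0.20 for Dbp (95% confidence interval -0.20 to 0.60), 0.12 for Per1 and 0.01 for Nr1d2. It lay on the other side of 0 for Cry2 (-0.03), Nr1d1 (-0.10) and Per2 (-0.22), and for Clock (0.02) and Cry1 (0.05) it came to lie above 0. For Arntl it was -0.21 and for Per3 0.21. Single arrays moved some values as well. Without virgin array 4 alone the log2 difference was 0.042 for Nr1d1, 0.093 for Nr1d2 and 0.19 for Cry2. Without virgin array 2 alone it was -0.16 for Arntl. Arntl was at -0.19 and Cry1 at -0.079 without parous array 3, Cry1 was at -0.36 without virgin array 3, and Per3 was at 0.13 without parous array 4. Without both virgin arrays 2 and 4 the median of the 10 genes was 0.014, beside 0.011 over all probe sets.

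The same pools stood apart in other gene groups. The score of 16 proliferation genes, the mean of their centred log2 values, was 1.02 on virgin array 2 and 1.51 on virgin array 4, but -0.24 and -0.16 on virgin arrays 1 and 3 and -0.80 to -0.33 on the parous arrays. Of these genes 12 were lower in parous mice at an unadjusted p under 0.05, 8 did not overlap between the groups and 0 passed the criteria (6.14%, 4.06% and 0.397% of all probe sets), with a median log2 difference of -1.18 and the largest for the mitotic kinase gene Bub1 (-2.04, limma adjusted p = 0.33). The score of 4 macrophage markers was lowest on the same arrays, at -0.38 and -0.45, against 0.016 to 0.073 on the other virgin arrays and -0.14 to 0.48 on the parous arrays. The score of 5 B and plasma cell markers was -1.36 and -1.20 there, against -0.18 and 1.01 on virgin arrays 1 and 3 and 0.018 to 1.24 on the parous arrays. Jchain and Tnfrsf17 of this list passed the criteria as higher in parous mice. Cd79a, Cd79b and Ms4a1 overlapped between the groups, with log2 differences of 0.75, 0.40 and -0.42 (limma adjusted p = 0.76, 0.86 and 0.92). All 5 luminal markers had a log2 difference below 0, with a median of -0.17. The 6 reference genes measured, such as Actb and Hprt, were all below 0 as well, with a median of -0.097, and Ppia and B2m did not overlap between the groups. Of the luminal markers Krt8, Krt19 and Cd24a did not overlap between the groups (4.06% of all probe sets). Krt19 had the largest difference (-0.47, limma adjusted p = 0.044), which was below 1.5-fold. The log2 level of Krt8 was nevertheless 13.0 to 13.4 on all arrays. Of 4 adipocyte markers, log2 levels over the arrays were 4.48 to 4.76 for Adipoq, 4.44 to 5.02 for Lep, at most 6.76 for Plin1 and 11.39 to 11.99 for Fabp4, which endothelial cells and macrophages also express. The part of these cell types and of proliferation in the clock gene values was not tested. Without virgin arrays 2 and 4 no clock gene reached an unadjusted p under 0.05. That outcome was partly set by the choice of arrays, which rested on the clock gene values, and 2 virgin arrays remained.

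To compare the arms, the centred log2 values of Arntl and Clock were averaged to an activator score and those of the 5 Per and Cry genes to a repressor score on each array. The activator score was -0.12, 0.16, -0.24 and -0.16 on the parous arrays and 0.063, 0.33, -0.054 and 0.017 on the virgin arrays. The repressor score was 0.12, 0.0070, 0.037 and 0.15 on the parous arrays and 0.073, -0.18, 0.033 and -0.23 on the virgin arrays. Both scores overlapped between the groups. The activator mean was lower in parous mice by 0.18 (group SDs 0.18 and 0.17), and the repressor mean was higher by 0.15 (SDs 0.066 and 0.15). Without virgin arrays 2 and 4 the activator difference was -0.093 and the repressor difference 0.024. The activator difference was -0.097 without virgin array 2 alone, -0.056 for Clock by itself and -0.021 with Arntl2 added to the arm.

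Activator minus repressor was -0.23, 0.16, -0.27 and -0.31 on the parous arrays and -0.01, 0.51, -0.09 and 0.25 on the virgin arrays. Parous array 2 lay among the virgin values, and the other parous arrays were below all virgin arrays. The group means differed by -0.33 (SDs 0.22 and 0.27), which became -0.22 without virgin array 2 and -0.12 without virgin arrays 2 and 4. With Arntl2 added to the activators and the REV-ERB genes to the repressors it was -0.19. No p is given for scores over genes that were named together.

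**Figure D2:**
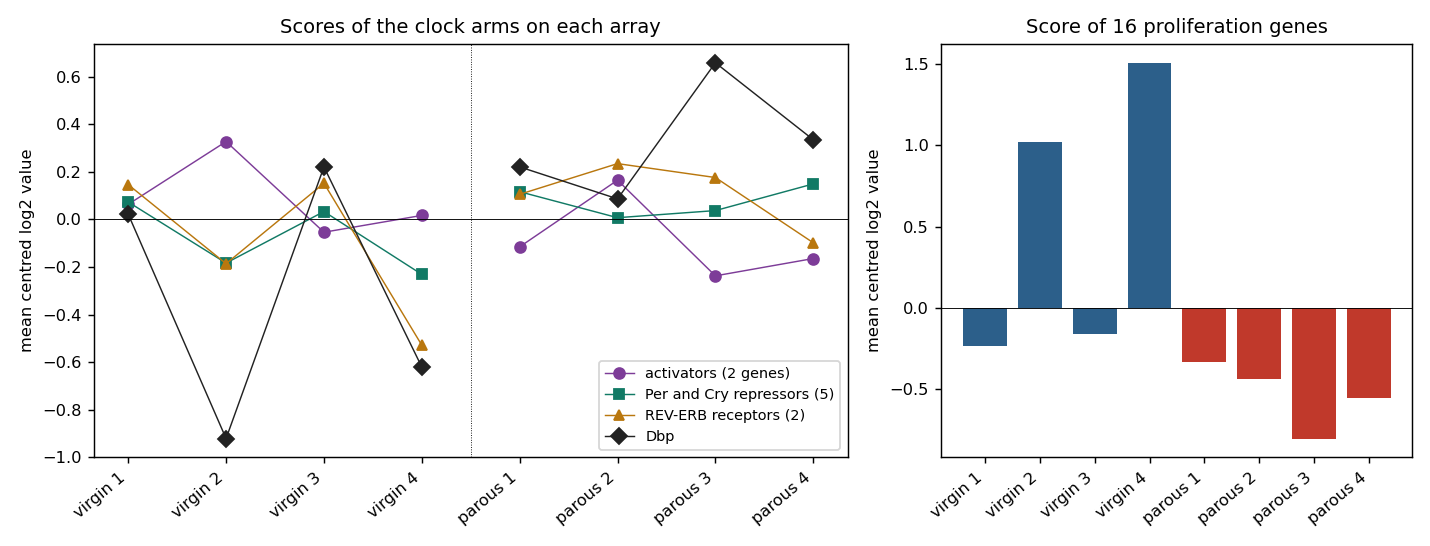
Left, the mean centred log2 value (vertical axis) of the activators, the Per and Cry repressors, the REV-ERB receptors and Dbp on each of the 8 arrays, with lines joining arrays of a group for reading only. Right, the score of 16 proliferation genes as bars (virgin blue, parous red). Dbp and the REV-ERB receptors were lowest on virgin arrays 2 and 4, the arrays with the highest proliferation scores.

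The opposition of Arntl and its targets was then examined over the 8 arrays, with 9 relations and Benjamini-Hochberg adjustment over them. Arntl correlated below 0 with 7 of the 9 other clock genes, a count that has no share over all probe sets beside it. Among them Nr1d1 was at -0.02. Cry2, Nr1d1 and Nr1d2 were above 0 (0.23, 0.48 and 0.41) without parous array 3 and virgin array 2. The relation was strongest with Per3 (Pearson r = -0.78, exact permutation p = 0.012, adjusted 0.107; Spearman rho = -0.83, exact p = 0.015, adjusted 0.126). It was -0.80 without parous array 3 and virgin array 2, the arrays farthest from the Arntl median, -0.70 with values centred on the group means and -0.80 without virgin arrays 2 and 4. Arntl and Dbp gave r = -0.73 (exact permutation p = 0.053, adjusted 0.238; rho = -0.79, exact p = 0.028, adjusted 0.126). This relation did not hold without parous array 3 and virgin array 2 (r = -0.16), which narrows the range of Arntl and keeps virgin array 4. It was -0.64 with values centred on the group means and -0.93 without virgin arrays 2 and 4. Those arrays were singled out by their low clock gene values, Dbp among them, and virgin array 4 stood apart in this relation. The coefficients without them, here and below, are therefore a description and carry no test. Neither relation passed 0.05 after adjustment.

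Per1 ran the same way (r = -0.62, exact permutation p = 0.123, adjusted 0.277) and was at -0.057 without the arrays farthest from the Arntl median, -0.46 after centring on the group means and -0.84 without virgin arrays 2 and 4. Cry1 ran with Arntl (r = 0.62, exact permutation p = 0.089, adjusted 0.268), which was 0.15 without the arrays farthest from the Arntl median, 0.55 after centring and 0.62 without virgin arrays 2 and 4. The REV-ERB genes, which share the E-box drive of Dbp in the textbook loop, showed little relation to Arntl over the 8 arrays, with r = -0.02 for Nr1d1 and -0.17 for Nr1d2. Both were above 0 without the arrays farthest from the Arntl median (0.48 and 0.41) and after centring (0.19 and 0.11). Without virgin arrays 2 and 4 they were 0.40 and 0.45. The remaining values were 0.21 for Clock, -0.21 for Per2 and -0.31 for Cry2.

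**Figure D3:**
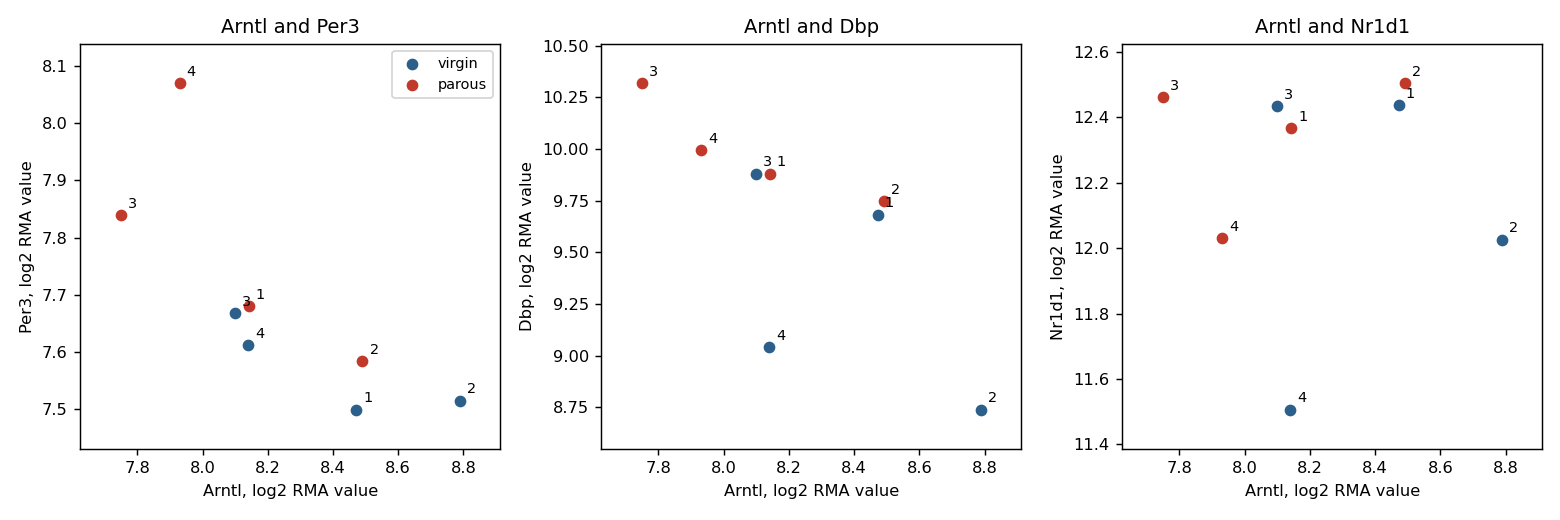
Log2 RMA value of Arntl (horizontal axes) against Per3, Dbp and Nr1d1 (vertical axes) on 4 virgin (blue) and 4 parous (red) arrays, numbered by replicate. Per3 fell as Arntl rose (r = -0.78), Dbp did so with virgin array 4 set apart below (r = -0.73), and Nr1d1 did not (r = -0.02).

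The loop is extended by further transcription factors, by kinases and ubiquitin ligases that set the lifetime of PER and CRY proteins, and by genes that cycle in many tissues. From a list made by hand, 25 such genes were measured. Of the 25, 1 passed the criteria, as higher in parous mice, and 0 passed as lower, against 0.397% of all probe sets in either direction. At an unadjusted p under 0.05, 7 were higher and 1 was lower, against 5.26% and 6.14% of all probe sets. Counted anew over the 25 genes, this total of 8 was 3 without virgin array 2, 4 without parous array 3 and 5 without parous array 1. It was 3 without both virgin arrays 2 and 4, but 10 without virgin array 1 and 10 without virgin array 3. In 5 all parous arrays were above the virgin ones, and in 0 all were below, against 3.54% and 4.06%. The log2 difference was above 0 in 16 and below 0 in 9, with a median of 0.083, beside 50.4% above 0 and a median of 0.0016 over all probe sets.

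The gene that passed was Pdk4, which encodes a kinase that inhibits pyruvate dehydrogenase and which is also induced by fasting and fatty acids. Its log2 values were 12.66, 12.82, 12.84 and 12.77 in parous mice and 12.10, 12.18, 11.97 and 12.26 in virgin mice. No virgin array reached the parous range. The means differed by 0.65 on the log2 scale (SE 0.085), or 1.56-fold, with a limma adjusted p of 0.019. Virgin arrays 2 and 4 were not its lowest arrays, and without them the difference was 0.74. The adjusted p rose to between 0.069 and 0.092 when any 1 of parous arrays 2, 3 or 4 or virgin arrays 1 or 2 was left out.

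Of the other loop factors, 9 of 10 measured genes had a log2 difference above 0 and 0 passed the criteria (50.4% and 0.397% of all probe sets). The score of these 10 genes was -0.22 on both virgin arrays 2 and 4. It was 0.038 and 0.024 on virgin arrays 1 and 3 and 0.061 to 0.13 on the parous arrays. Tef, a PAR bZIP factor like Dbp, had log2 values of 8.76, 8.58, 8.84 and 8.67 in parous mice and 8.55, 8.09, 8.59 and 7.96 in virgin mice. It shared the low virgin arrays 2 and 4, with a log2 difference of 0.41 (limma adjusted p = 0.36) that was 0.14 without them. Rora, whose receptor activates Arntl at the elements that REV-ERB occupies, had a log2 difference of 0.37 (adjusted p = 0.35), and its lowest parous array, 10.28, was level with its highest virgin array, 10.28. Its difference was 0.24 without virgin array 4 and 0.16 without virgin arrays 2 and 4. Ciart, a repressor of the activator pair, had a difference of 0.26 (adjusted p = 0.37), which was 0.15 without virgin arrays 2 and 4. Its other probe set gave 0.37, with groups that overlapped. Arntl2, the paralog of Arntl, lay on the other side of 0 from Arntl, with a difference of 0.29 (adjusted p = 0.31) that was 0.40 without virgin arrays 2 and 4.

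Among 8 kinases, ubiquitin ligases and related enzymes, Usp2, a deubiquitinase of clock proteins, did not overlap between the groups (log2 difference 0.46, limma adjusted p = 0.31). Its lowest parous array, 10.474, was nearly level with its highest virgin array, 10.468. The difference of Usp2 was 0.20 without virgin arrays 2 and 4. Fbxw11, a subunit of the ligase that marks PER proteins for degradation, was the only one of the 25 genes below 0 at an unadjusted p under 0.05 (-0.26, adjusted p = 0.33). Among 7 rhythmic targets, Nampt, the rate-limiting enzyme of the NAD salvage pathway, had a difference of 0.21 (adjusted p = 0.41), which was 0.094 without virgin arrays 2 and 4.

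**Figure D4:**
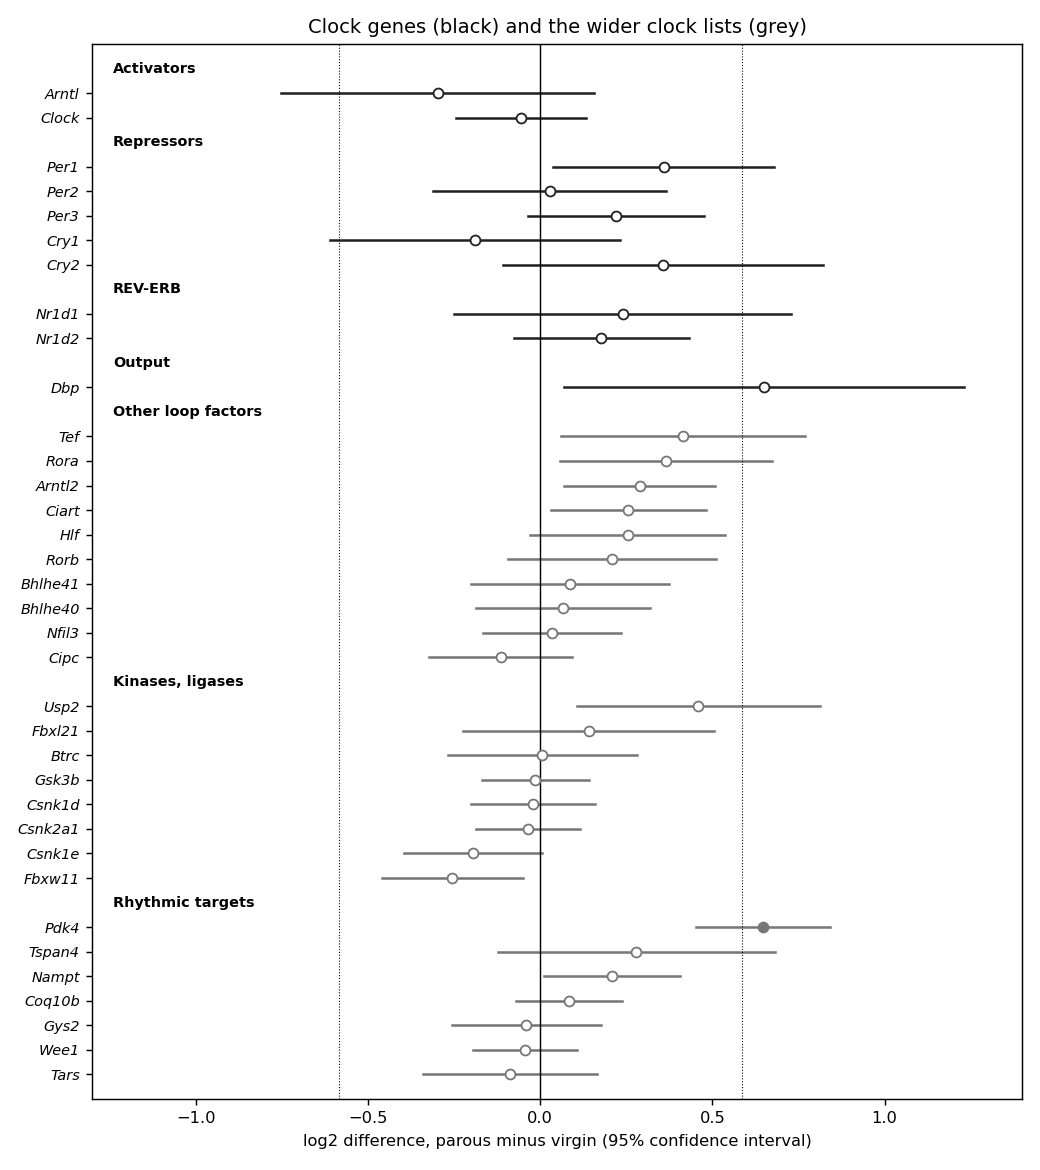
Log2 difference between the means of 4 parous and 4 virgin arrays (horizontal axis, parous minus virgin, with 95% confidence intervals) for the 10 clock genes (black) and 25 genes of the wider clock lists (grey). Filled points passed the criteria and dotted lines mark a 1.5-fold change. Pdk4 alone is filled, and Dbp has a similar difference (0.65) with a wider interval.

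The genes outside the clock lists whose values ran most like Arntl over the 8 arrays, among 13029 probe sets that name 1 gene and are brighter than the median, were Wsb2 (Pearson r = 0.96), Map2k3os (0.96), Pdp1 (0.96), Zc3h12c (0.95) and Grpel2 (0.95). For Dbp they were Ifitm6 (0.99), Mmp9 (0.99), Ccl24 (0.98), Ecm1 (0.98) and Mob3b (0.98). These coefficients are the highest of many computed on few arrays and are given as a description.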

How the data were processed

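Total mammary cell suspensions of 4 parous and 4 virgin pools of 5 mice each were measured on Affymetrix Mouse Gene 1.0 ST arrays, 1 per pool. The deposited values are log2 values that the authors made with rma() of the affy package (the methods give a release of R/Bioconductor, but no version of affy itself), which corrects background, quantile normalizes between arrays and gives 1 value per probe set. Array medians were 6.29 to 6.43 and correlations between arrays 0.976 to 0.993. The number of arrays limits the precision.

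Of 34760 probe sets, 21640 named 1 gene, 1321 several and 11799 none here. Symbols came from the array annotation, updated through the gene identifier (21553) or an accession (3), and 84 were kept. Groups were compared in R 4.3.3 with limma 3.58.1 (lmFit, eBayes, 2-sided, no covariate) and Benjamini-Hochberg adjustment over all probe sets, by code tested on simulated data. Exact permutation tests of group differences used scipy 1.17.1 in Python 3.11.15. Those of correlations used separate code, checked against scipy on an example. A score is the mean of centred log2 values. Of genes with several probe sets the brightest was used.

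The members and lists were chosen with earlier results of these data known. Named were all clock genes, wider clock genes past the criteria or at an unadjusted p under 0.05, the 5 genes most like Arntl and Dbp, and in companion lists the genes that passed or else the largest difference. Pools count as replicates. They came from 4 experiments that each held both groups, and no source used here matches arrays to experiments. Alternatives were other normalizations, filters, weights, tests, a replicate block and arrays left out.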

Additional observations from a re-analysis of the deposited data

Results flagged for a closer look

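In groups of 4 arrays, a sample was singled out when its gap to the nearest of the others, divided by the range of the group exceeded the 95% critical value of Dixon's test. This held for Cry1 on parous array 3, with a log2 value of 8.32 against 8.74 to 8.77 on the other parous arrays (gap over range 0.92). It also held for Cry2 on parous array 4, with 9.64 against 9.75 to 9.77 (0.88). Chance flags about 1 in 20 groups, which is 2.1 of the 42 groups examined, and 2 were found.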

How the results depend on the processing

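No clock gene passed the criteria under any alternative that kept the adjustment, and the lowest adjusted p of a clock gene in any of them was 0.16 (Per1, without virgin array 3). With an unadjusted p and no fold change criterion, 2 clock genes (Per1 and Dbp), 8 wider clock genes and 3965 probe sets passed, against 0, 1 and 138. The methods' t-test with adjustment gave 11 probe sets and 0 wider clock genes. Leaving out 1 array at a time gave 42 to 179 probe sets and 0 to 1 wider clock genes, and the difference of Per2 ranged from -0.078 to 0.11. Without virgin arrays 2 and 4, the difference was 0.022 for Clock, 0.051 for Cry1, -0.033 for Cry2, -0.095 for Nr1d1 and -0.22 for Per2, and the repressor score difference was 0.024. With array weights Per2 was at -0.064. Arntl, Per1, Per3, Nr1d2 and Dbp kept their sign in all 17 alternatives. Of the correlations with Arntl, those of Clock (-0.035), Cry2 (0.23), Nr1d1 (0.48) and Nr1d2 (0.41) turned sign without the 2 arrays farthest from its median, as did Nr1d1 (0.19) and Nr1d2 (0.11) after centring on group means. Virgin arrays 2 and 4 were singled out by the clock gene values, so shifts without them were partly set beforehand. The cause of all these shifts was not tested. The groups share replicate numbers, and each of 4 experiments held virgin and parous mice, but no source used here says that the numbers mark them. Deviations of same-numbered arrays correlated at 0.12, 0.18, -0.06 and 0.31, and only numbers 2 and 4 correlated best with their own. With the replicate number as a block, 49 probe sets, 0 wider clock genes (Pdk4 at an adjusted p of 0.103) and 0 clock genes passed, and the lowest adjusted p of a clock gene was 0.24 (Arntl, limma p of 0.0067 before adjustment, against 0.17 without the block). The block gave a limma p of 0.0081 for Dbp (adjusted 0.25) and 0.013 for Per1 (adjusted 0.27). The other clock genes stayed above an unadjusted 0.05 with it. With 4 arrays a group, the 95% interval of Dbp was wider than its difference.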

Other observations

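Immediate early genes, which are induced within minutes of a stimulus such as tissue dissociation, and glucocorticoid-responsive genes were read beside Per1, which belongs to both kinds. Of 14 immediate early genes 0 passed the criteria and 12 had a log2 difference above 0, with a median of 0.13, beside 0.397% passed and 50.4% above 0 over all probe sets. Fos was lowest on virgin arrays 2 and 4, as Per1 was, with log2 values of 11.65 and 11.64, against 12.04 and 12.27 on the other virgin arrays and up to 12.49 on the parous arrays. Egr3 lay the other way, with all parous arrays below all virgin arrays (difference -0.54, limma adjusted p = 0.097). Of 7 glucocorticoid-responsive genes 0 passed and 6 were above 0, with a median of 0.20. The largest was Tsc22d3, which encodes the glucocorticoid-induced leucine zipper (difference 0.42, adjusted p = 0.52). Its log2 values were 9.78, 9.37, 9.83 and 9.77 in parous mice and 9.55, 9.02, 9.73 and 8.77 in virgin mice, again lowest on virgin arrays 2 and 4. Klf9 and Ddit4 were also lowest on these arrays, and Zbtb16 was lowest on virgin array 4. Other genes of the list went the other way on virgin array 4. Mt2 (12.75) and Sgk1 (11.82) were at their highest there, and Fkbp5 (8.68) was at its highest among the virgin arrays. Fos was chosen after its values were seen. Hormone-sensing luminal markers (4 genes) had scores of -0.87 to -0.26 on parous and -0.03 to 0.82 on virgin arrays, and Foxa1 had a difference of -1.18 (adjusted p = 0.12).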
